A study of Mus musculus with 9 samples.

Results

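Guanylate-binding proteins (GBPs) and immunity-related GTPases (IRGs) are the interferon-inducible GTPases of cell-autonomous immunity, and 10 of their mouse genes were described here: Gbp2, Gbp3, Gbp4, Gbp5, Gbp6, Gbp7, Gbp9, Irgm1, Irgm2 and Igtp. They were taken by name, through the gene symbols of the gene IDs, out of the 55401 genes counted. A further 17 genes of the same families were listed beside them. GBPs are large dynamin-like proteins that assemble on membranes and on the surface of intracellular bacteria, and some are anchored there by a prenyl group. IRGs fall into effectors, which coat and break the vacuoles of intracellular parasites, and the Irgm proteins, which sit on the cell's own membranes and hold the effectors inactive there. Both families are induced by interferon gamma and, more weakly, by type I interferon, in part through the transcription factor IRF1, and they are read as a gauge of interferon signalling in many cell types, glial and tumour cells included.

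Poly(A) RNA was sequenced from NP53, a mouse cell line of diffuse midline glioma, a childhood brainstem tumour, and from derivatives of it labelled as TIM-3 knockouts. TIM-3, encoded by Havcr2, is a checkpoint receptor that restrains T cells and is also found on other cell types. There were 9 libraries, 3 from NP53 itself (Gcontrol, wild type in the labels), 3 from the knockout derivative G1C7 and 3 from the knockout derivative G2C9. All 3 groups share the NP53 background and the culture medium, the labels name no interferon or other treatment, and they do not say whether a derivative is 1 clone, which guide was used, or whether the 3 libraries came from separate cultures. The p-values therefore measure only the spread between these libraries, which may be technical.

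Values are reads per gene, or CPM, the usual measure in which reads are scaled to library size. The libraries held between 50110129 and 56035382 reads in genes. Each mate of a pair was counted, so that 3 read pairs, the floor used for a count of 0, are 6 reads, or between 0.106 and 0.122 CPM in a library. Intervals and floors cover counting error only. Havcr2 was still read in both derivatives, at 74, 58 and 60 reads in Gcontrol, 55, 6 and 66 in G1C7 and 39, 30 and 28 in G2C9. With all 9 libraries neither derivative passed the test against Gcontrol (edgeR, adjusted p = 0.586 and 0.448). Each G2C9 library, at 0.547 to 0.772 CPM, was below each Gcontrol library, at 1.06 to 1.37 (22.9% of all genes). Without G1C7 replicate 2 and G2C9 replicate 3, set apart below, Havcr2 was called lower in G2C9, at a log2 fold change of -0.75 (27.6% of all genes). In that fit it was not called in G1C7, at -0.06. Among glial markers, Olig1 and Olig2 were at 0 reads in all 9 libraries and Sox10 at no more than 2, while Vim, Pdgfra, Nes, Sox2, Nkx2-2 and Cspg4 were read. Of 7 tested glial markers, Pdgfra and Nkx2-2 rose in both derivatives and Nes and Vim in G1C7. Cspg4, a proteoglycan of glial progenitors, fell in both, from 43.6 ± 4.72 CPM (SD, n = 3) in Gcontrol to 1.30 ± 0.341 in G1C7 and 4.26 ± 1.04 in G2C9 (edgeR, adjusted p = 3.4e-05 and 0.000157). The calls of Nkx2-2 and Cspg4 stood in each fit with 1 library left out and the others did not, and the part of these marker changes in the results below was not tested. Of 12 macrophage and microglia markers, Adgre1 and Tyrobp were at 0, and 5 had fewer than 6 reads in each library. The sum of these 12 ranged over 7.34 to 8.35 CPM for Gcontrol, 3.59 to 9.17 for G1C7 and 5.61 to 14.4 for G2C9, and of 5 tested, 1 (Csf1r) fell in G1C7, though not with Gcontrol replicate 2 left out, and none was called in G2C9. In bulk RNA, fewer cells of a type and less RNA per cell cannot be told apart.

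In each derivative 1 library stood apart, and it bears on most of the genes below. G1C7 replicate 2 and G2C9 replicate 3 held far more acute-phase and inflammatory transcripts than their sister libraries. The summed CPM of 11 such genes was between 2674 and 2873 in Gcontrol. It was 5216 in G1C7 replicate 2 against at most 1204 in the other G1C7 libraries, and 12280 in G2C9 replicate 3 against at most 2906 in the other G2C9 libraries. The macrophage marker sums were also highest in these libraries, at 9.17 and 14.4 CPM against at most 3.67 and 5.92 in their sisters. No label sets these libraries apart, and the part of these differences in the results below was not tested. Results against Gcontrol for the members and for the pathway lists are given with and without both libraries. The fits without them keep 2 libraries per derivative, and leaving out the most different libraries narrows the spread. Their p-values therefore measure only the spread of the libraries kept.

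The promoters are shown first, since the members are known as interferon targets and the sequences that interferon-activated factors read lie close to their starts. The interferon-stimulated response element (ISRE) binds proteins of the IRF family, and the gamma-activated site (GAS) is an element of many genes that interferon gamma induces. RefSeq promoters (GRCm38.p6, 250 bases before to 50 after each start) were available for 7 of the 10 members, 8 promoters in all because Gbp3 has 2; Gbp4, Gbp6 and Gbp9 were not matched. For the ISRE, the letters GAAA, any 2 bases (NN) and GAAA again were searched on both strands, so that a match on the other strand reads TTTC, any 2 bases, TTTC. For the GAS, the letters TTCNNNGAA were searched, which read the same on both strands. No ISRE match overlapped a GAS match. Each line below gives the bases that end just before the start site, 170 for Gbp5 and 120 for the others, 5′ to 3′ on the gene's own strand, with motif matches in capitals.
Gbp2 (chr3:142620543-142620662, plus strand): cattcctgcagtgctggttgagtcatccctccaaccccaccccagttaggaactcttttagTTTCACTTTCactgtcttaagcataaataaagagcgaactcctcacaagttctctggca
Gbp3 (chr3:142559924-142560043, plus strand): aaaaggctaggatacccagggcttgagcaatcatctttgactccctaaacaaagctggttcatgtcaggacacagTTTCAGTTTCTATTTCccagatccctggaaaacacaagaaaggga
Gbp5 (chr3:142496764-142496933, plus strand): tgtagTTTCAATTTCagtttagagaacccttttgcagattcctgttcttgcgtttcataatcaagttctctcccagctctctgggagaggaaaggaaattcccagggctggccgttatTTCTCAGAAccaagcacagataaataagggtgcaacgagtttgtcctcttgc
Gbp7 (chr3:142530216-142530335, plus strand): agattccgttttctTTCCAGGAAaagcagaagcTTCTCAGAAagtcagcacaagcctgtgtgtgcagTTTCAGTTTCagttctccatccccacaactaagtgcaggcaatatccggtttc
Irgm1 (chr11:48871421-48871540, minus strand): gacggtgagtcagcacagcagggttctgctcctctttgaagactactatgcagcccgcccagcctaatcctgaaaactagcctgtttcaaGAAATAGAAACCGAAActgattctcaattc
Irgm2 (chr11:58214857-58214976, plus strand): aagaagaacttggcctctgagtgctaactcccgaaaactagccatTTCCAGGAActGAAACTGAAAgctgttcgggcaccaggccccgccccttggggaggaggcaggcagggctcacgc
Igtp (chr11:58199436-58199555, plus strand): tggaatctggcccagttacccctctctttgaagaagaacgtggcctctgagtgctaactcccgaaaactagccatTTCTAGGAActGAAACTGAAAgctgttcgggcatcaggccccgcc

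All 7 matched members held an ISRE match in a promoter, and 1 of the 2 promoters of Gbp3 held none. Of all 32851 promoters of this length, 3.44% held the same letters. A GAS match stood in 4 members, Gbp5, Gbp7, Irgm2 and Igtp, against 8.3% of all promoters, while Gbp2, Gbp3 and Irgm1 held ISRE letters only. In Gbp3 and in Irgm1 the run of capitals is 2 overlapping ISRE matches, which share their middle bases. Igtp and Irgm2, neighbours on chromosome 11, carry the GAS and the ISRE in the same order with 2 bases between them. The ISRE match begins 59 bases before the start in Gbp2 and 34 in Igtp, and 165 in Gbp5, whose GAS matches begin 245 and 52 bases before it. A match is a run of letters and not a measured binding site.

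**Figure D1:**
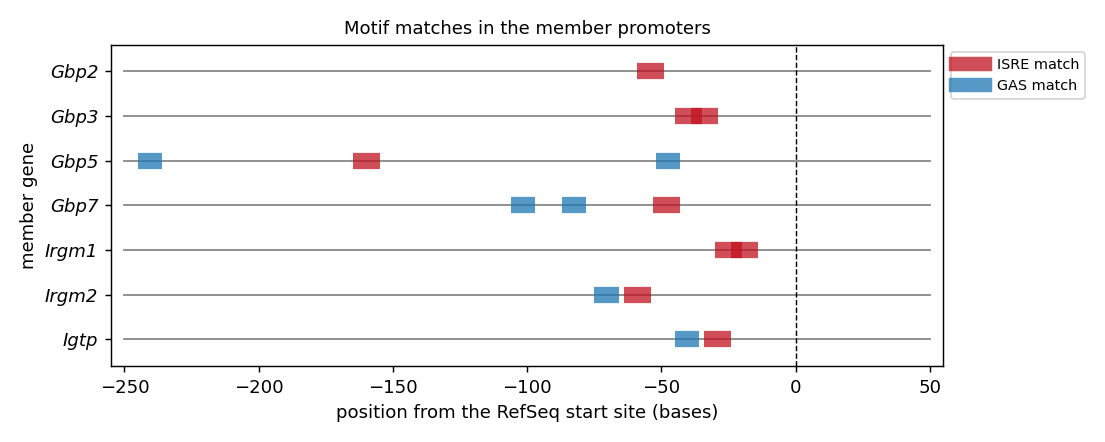
Positions of motif matches in the RefSeq promoters of the 7 matched members, in bases from the start site (dashed line); red boxes are ISRE letters and blue boxes GAS letters, and for Gbp3 the promoter with a match is drawn. Each member has a red box before its start, and Gbp5, Gbp7, Irgm2 and Igtp have blue boxes too.

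In the parental cells the 10 members were read at very different levels. Per kilobase of exon not shared with another gene, Gbp2 was the most abundant in Gcontrol at 31.0 ± 0.847 CPM per kb (SD, n = 3). Gbp9 followed at 7.55 ± 0.422, Irgm1 at 4.78 ± 0.289, Gbp3 at 3.59 ± 0.379 and Gbp4 at 2.88 ± 0.158. Igtp at 1.72 ± 0.0993 and Irgm2 at 1.61 ± 0.210 did not differ beyond their spread, and Gbp7 at 0.881 ± 0.0591, Gbp6 at 0.257 ± 0.0102 and Gbp5 at 0.11 ± 0.0404 were lowest. On the same scale Gbp2 had the highest mean in G1C7 (5.5 ± 0.804) and in G2C9 (11.5 ± 0.602). Irgm1 stood next in G1C7 at 4.05 ± 0.777 and did not differ from Gbp2 beyond their spread, since in G1C7 replicate 2 it was above Gbp2 (4.93 against 4.59 CPM per kb). Gbp9 followed at 2.5 ± 1.11, below Irgm1 in each G1C7 library. In G2C9 Gbp9 at 4.62 ± 3.29 and Irgm1 at 2.56 ± 0.661 overlapped in spread, but Gbp9 was above Irgm1 in each G2C9 library. They stood at 2.69, 2.75 and 8.41 against 2.12, 2.23 and 3.32 CPM per kb.

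The members as a group were read less in both derivatives. Summed over the 10, the Gcontrol libraries held 190.8, 196.7 and 188.2 CPM, the G1C7 libraries 54.3, 76.5 and 53.6, and the G2C9 libraries 65.5, 66.3 and 118.9. For this sum no derivative library reached the lowest Gcontrol library, and the highest of each derivative was the library that stood apart. The 3 IRG members alone summed to 34.42, 38.23 and 37.26 CPM in Gcontrol, 22.85, 35.71 and 23.48 in G1C7 and 14.31, 15.49 and 27.36 in G2C9. For them G1C7 replicate 2 lay within the Gcontrol range. The sums of the chromosome 3 and of the chromosome 5 GBP members were below Gcontrol in every derivative library. In the edgeR fit, 6 of 10 members fell in G1C7 and none rose, where 8.73% of all 15659 genes tested were called lower and 8.77% higher. In G2C9, 5 of 10 fell and none rose, where 7.22% of all genes were called lower and 6.25% higher. The median log2 fold change of the 10 was -1.87 in G1C7 and -1.37 in G2C9, against 0.02 and 0.01 over all genes tested. Both comparisons use the same Gcontrol libraries and are given side by side. Libraries did not overlap and were lower in 8 members for G1C7 (22.1% of all genes) and in 7 for G2C9 (22.9%). All 10 members passed the filter on low counts, Gbp5 only through its Gcontrol libraries, so that its part in these counts is no support for them.

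**Figure D2:**
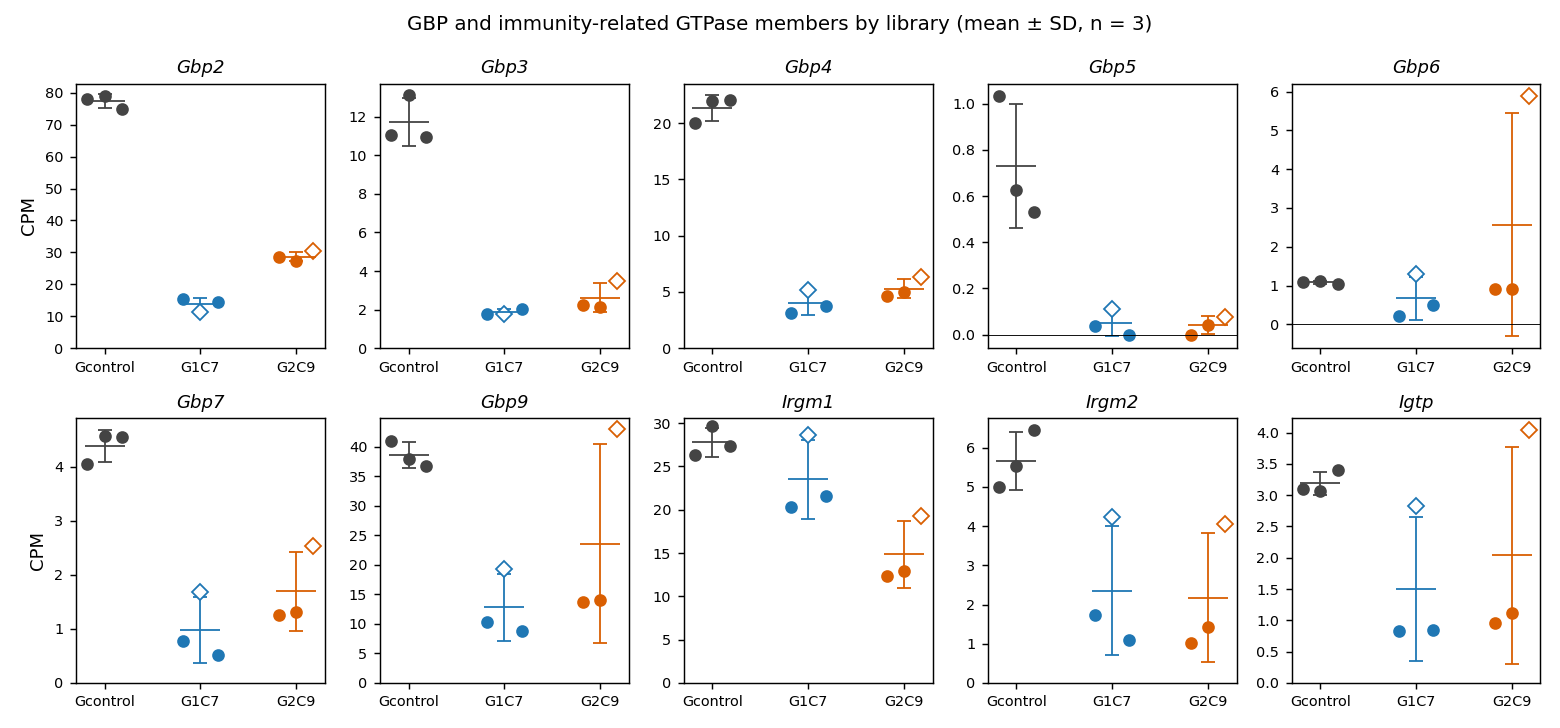
Level of each member (CPM, linear axes that differ between panels) in every library, with the mean and SD of 3 libraries; open diamonds are G1C7 replicate 2 and G2C9 replicate 3. Gbp2, Gbp3, Gbp4, Gbp5, Gbp7 and Irgm2 show no overlap between either derivative and Gcontrol, while the diamonds of Gbp6, Gbp9, Irgm1, Irgm2 and Igtp lie above their sister libraries.

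Gbp2 separated all 3 groups. Gbp2 (ENSMUSG00000028270.12, GRCm38 chr3:142620602-142638008, plus strand) encodes one of the prenylated GBPs, which is recruited to pathogen vacuoles. It had 4225, 4278 and 4252 reads in Gcontrol, 815, 629 and 792 in G1C7 and 1437, 1339 and 1552 in G2C9. No groups overlapped, with Gcontrol highest, G2C9 between and G1C7 lowest. Its level fell from 77.4 ± 2.11 CPM (SD, n = 3) in Gcontrol to 13.7 ± 2.00 in G1C7, a log2 fold change of -2.5 ± 0.12 (SE; edgeR, adjusted p = 2.9e-05), or 5.64-fold. It fell to 28.7 ± 1.5 CPM in G2C9, a log2 fold change of -1.43 ± 0.11 (edgeR, adjusted p = 0.00024). G1C7 replicate 2, the library with the high acute-phase transcripts, had the lowest Gbp2 level of all 9 libraries, at 14.8% of the Gcontrol mean.

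Gbp3 and Gbp7 lie in the same cluster of GBP genes on chromosome 3. Gbp3 (ENSMUSG00000028268.14, GRCm38 chr3:142560026-142573209, plus strand) had 599, 712 and 621 reads in Gcontrol, 94, 98 and 111 in G1C7 and 112, 104 and 178 in G2C9. The derivative libraries lay far below Gcontrol in both groups, and the highest of them was G2C9 replicate 3. On the log2 scale Gbp3 fell by 2.66 ± 0.23 for G1C7 and by 2.17 ± 0.22 for G2C9 (edgeR, adjusted p = 0.000282 and 0.00069). Gbp7 (ENSMUSG00000040253.15, GRCm38 chr3:142530342-142550149, plus strand), reported to take part in assembling the phagocyte NADPH oxidase, had 219, 247 and 258 reads in Gcontrol, 41, 92 and 28 in G1C7 and 63, 64 and 130 in G2C9. Every derivative library was below every Gcontrol library, and the libraries that stood apart were the highest of their groups. Gbp7 fell by 2.15 ± 0.45 on the log2 scale in G1C7 (edgeR, adjusted p = 0.0138). In G2C9 its log2 fold change was -1.37 ± 0.44 and did not pass the test (adjusted p = 0.0768), and it passed at -1.78 ± 0.18 without the libraries that stood apart (adjusted p = 2.8e-07). Of the exon bases of Gbp7, 11.3% are shared with the overlapping gene Gm43802, where reads were dropped.

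Gbp5 was read at or near the floor in both derivatives. Gbp5 (ENSMUSG00000105504.4, GRCm38 chr3:142493978-142522344, plus strand) is a prenylated GBP of the Golgi, reported to promote assembly of the NLRP3 inflammasome. It had 56, 34 and 30 reads in Gcontrol, 2, 6 and 0 in G1C7 and 0, 2 and 4 in G2C9. All 6 derivative libraries were at or under the floor of 6 reads, and all 3 Gcontrol libraries were above it. The ratio of normalized reads, Gcontrol over the derivative, was 14.8 for G1C7 (95% counting interval 5.5 to 56.2) and 18.3 for G2C9 (5.96 to 91.1), from 60 read pairs in Gcontrol against 4 and 3. Gbp5 passed the edgeR test in both derivatives (adjusted p = 0.0185 and 0.0192). It entered that test only through its Gcontrol libraries, so these calls are no separate support for a fall. The call was lost without any 1 of the Gcontrol libraries, without G1C7 replicate 1 for G1C7, and without G2C9 replicate 1 or 2 for G2C9, with adjusted p of up to 0.0857 and 0.0894.

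The GBP cluster on chromosome 5 was less uniform. Gbp4 (ENSMUSG00000079363.7, GRCm38 chr5:105115767-105139586, minus strand), an interferon-inducible GBP, had 1083, 1192 and 1252 reads in Gcontrol, 166, 285 and 206 in G1C7 and 233, 245 and 322 in G2C9. All derivative libraries lay below Gcontrol, with the libraries that stood apart highest in each group. Gbp4 fell from 21.4 ± 1.18 CPM to 4.02 ± 1.07 in G1C7, by 2.41 ± 0.21 on the log2 scale (edgeR, adjusted p = 0.000317). It fell to 5.30 ± 0.876 CPM in G2C9, by 2.01 ± 0.21 (adjusted p = 0.000731).

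Gbp9 (ENSMUSG00000029298.15, GRCm38 chr5:105077630-105139539, minus strand), which lies over Gbp4 on the same strand with 1.2% of its exon bases shared, had 2220, 2058 and 2089 reads in Gcontrol, 551, 1059 and 484 in G1C7 and 694, 689 and 2204 in G2C9. All G1C7 libraries were below Gcontrol, and so were G2C9 replicates 1 and 2, but G2C9 replicate 3 was level with it. Gbp9 fell by 1.59 ± 0.47 on the log2 scale in G1C7 (edgeR, adjusted p = 0.0484), a call lost without any 1 Gcontrol library or without G1C7 replicate 1 or 3 (adjusted p as high as 0.130). In G2C9 its log2 fold change was -0.71 ± 0.46 (adjusted p = 0.367). Leaving out both libraries that stood apart gave -1.47 ± 0.08 (adjusted p = 3.6e-11), with G2C9 replicates 1 and 2 at 35.6% and 36.4% of the Gcontrol mean and replicate 3 at 111.4%.

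Gbp6 (ENSMUSG00000104713.4, GRCm38 chr5:105270702-105293698, minus strand) was the GBP called in neither derivative. It had 59, 61 and 59 reads in Gcontrol, 12, 71 and 28 in G1C7 and 46, 45 and 302 in G2C9. The libraries of each derivative lay on both sides of Gcontrol, and G2C9 replicate 3 was far above all others at 542.9% of the Gcontrol mean. The log2 fold changes were -0.68 ± 0.83 for G1C7 and 1.24 ± 0.81 for G2C9, neither of them called (edgeR, adjusted p = 0.623 and 0.370). In G2C9 the sign turned to -0.24 without replicate 3. Gbp6 shares 29.0% of its exon bases with the overlapping gene Gm43302, and 64.5% of the 100-base words of its transcripts also occur in other genes, so that its counts are uncertain.

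The 3 IRG members are the regulators of their family. Irgm1 (ENSMUSG00000046879.7, GRCm38 chr11:48861968-48871683, minus strand), which guards host membranes and takes part in autophagy, had 1425, 1604 and 1554 reads in Gcontrol, 1085, 1575 and 1180 in G1C7 and 623, 634 and 987 in G2C9. G2C9 lay below both other groups, while G1C7 overlapped Gcontrol through its replicate 2. Irgm1 fell by 0.90 ± 0.20 on the log2 scale in G2C9 (edgeR, adjusted p = 0.0178), a call lost without G2C9 replicate 1 or 2 or any 1 Gcontrol library, with an adjusted p as high as 0.0734. For G1C7 its log2 fold change was -0.24 ± 0.19 (adjusted p = 0.438). With both libraries that stood apart left out, Irgm1 was called lower in each derivative, at -0.41 ± 0.07 (adjusted p = 8.3e-05) for G1C7 and -1.14 ± 0.07 (adjusted p = 7.9e-10) for G2C9.

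Irgm2 and Igtp (also called Irgm3), the other regulatory IRGs, overlap each other on chromosome 11. Irgm2 (ENSMUSG00000069874.7, GRCm38 chr11:58199618-58222782, plus strand) had 270, 300 and 366 reads in Gcontrol, 93, 232 and 60 in G1C7 and 52, 70 and 208 in G2C9. No derivative library reached Gcontrol, and in each derivative 1 library stood far above its sisters. Irgm2 passed in neither derivative, at log2 fold changes of -1.27 ± 0.59 for G1C7 and -1.38 ± 0.60 for G2C9 (edgeR, adjusted p = 0.184 and 0.174). Igtp (ENSMUSG00000078853.8, GRCm38 chr11:58199556-58207591, plus strand) had 168, 166 and 193 reads in Gcontrol, 44, 155 and 46 in G1C7 and 48, 55 and 207 in G2C9. G1C7 was below Gcontrol throughout, and G2C9 replicate 3 was above it. Igtp passed in neither as well, at -1.09 ± 0.64 for G1C7 and -0.65 ± 0.64 for G2C9 (adjusted p = 0.286 and 0.575). Without the libraries that stood apart both genes were called lower in both derivatives, Irgm2 at -2.0 ± 0.20 and -2.20 ± 0.21 and Igtp at -1.94 ± 0.20 and -1.62 ± 0.20. The shared part is 4.4% of the exon bases of Irgm2 and 8.0% of those of Igtp.

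**Figure D3:**
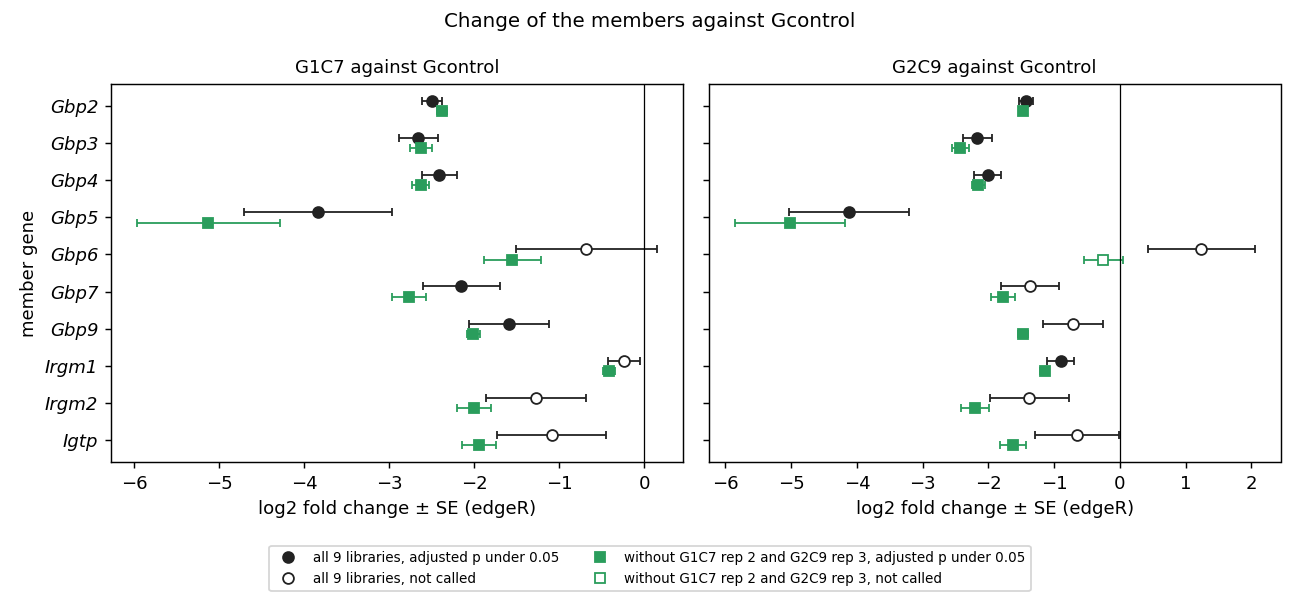
Log2 fold change ± SE (edgeR) of each member in G1C7 and G2C9 against Gcontrol, with all 9 libraries (black circles) and without G1C7 replicate 2 and G2C9 replicate 3 (green squares); filled symbols have an adjusted p under 0.05. With all libraries 6 and 5 members are filled, and without those libraries 10 and 9, Gbp6 in G2C9 being the open square.

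Without both libraries that stood apart, all 10 members were called lower in G1C7 and 9 of 10 in G2C9. The share of all genes called lower was then 27.9% and 27.6%, so the counts of members stand against a much larger background, and Gbp5 again passed the filter only through Gcontrol. The medians over the 10 were -2.19 and -1.70, against -0.01 over all genes tested in each comparison. Gbp6 in G2C9 was the member not called, at -0.25 ± 0.30 (edgeR, adjusted p = 0.529). In each of the 9 fits with 1 library left out, Gbp2, Gbp3 and Gbp4 were called lower in both derivatives, and so was Gbp7 in G1C7, whose adjusted p reached 0.04998 when Gcontrol replicate 3 was left out.

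The derivatives were then compared with each other, G1C7 against G2C9, which tests the difference between their changes from Gcontrol. Only Gbp2 was called, 1 of 10 members, where 1.65% of all genes were called lower in G1C7 and 1.71% higher. Gbp2 was 2.09-fold lower in G1C7, at a log2 fold change of -1.06 ± 0.11 (edgeR, adjusted p = 0.0021), and the call stood in each fit with 1 library left out, between -1.15 and -0.95. Libraries of the derivatives did not overlap for Gbp2 and Gbp3, lower in G1C7 (8.51% of all genes), nor for Irgm1, higher in G1C7 (9.73% of all genes). Gbp3 stood at 1.76, 1.78 and 2.03 CPM in G1C7 and 2.22, 2.12 and 3.47 in G2C9, a log2 fold change of -0.49 ± 0.22 that did not pass (adjusted p = 0.337). Irgm1 stood at 20.3, 28.7 and 21.6 CPM in G1C7 and 12.3, 12.9 and 19.3 in G2C9, a log2 fold change of 0.66 ± 0.20 that did not pass with edgeR (adjusted p = 0.128) and passed with DESeq2 (adjusted p = 0.0317). The median of the 10 members was -0.47, against 0.01 over all genes. Without both libraries that stood apart, 5 members were called lower in G1C7 (Gbp2, Gbp4, Gbp6, Gbp7 and Gbp9; 12.5% of all genes) and Irgm1 higher at 0.73 ± 0.08 (14.8% of all genes).

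Members differed in how far the libraries that stood apart lay from their sisters. In G1C7, Gbp2 and Gbp3 were at 0.771 and 0.943 times the mean of the other G1C7 libraries, and Irgm1 and Gbp4 at 1.37 and 1.51 times. Gbp9 was at 2.01 times, Gbp7 at 2.62, Irgm2 at 2.98, Igtp at 3.39 and Gbp6 at 3.51. In G2C9, Gbp2 was at 1.09 times the mean of the other G2C9 libraries, Gbp4 at 1.31, Irgm1 at 1.53 and Gbp3 at 1.6. Gbp7 was at 1.99 times, Gbp9 at 3.10, Irgm2 at 3.30, Igtp at 3.90 and Gbp6 at 6.45. So Gbp6, Igtp and Irgm2 were the members furthest above their sisters in both, and Gbp2, Gbp3, Gbp4 and Irgm1 were the nearest. These libraries were singled out by other genes, and with 1 of them per derivative there is no replicate behind these ratios. Gbp5 has too few reads in the derivatives for such a ratio.

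**Figure D4:**
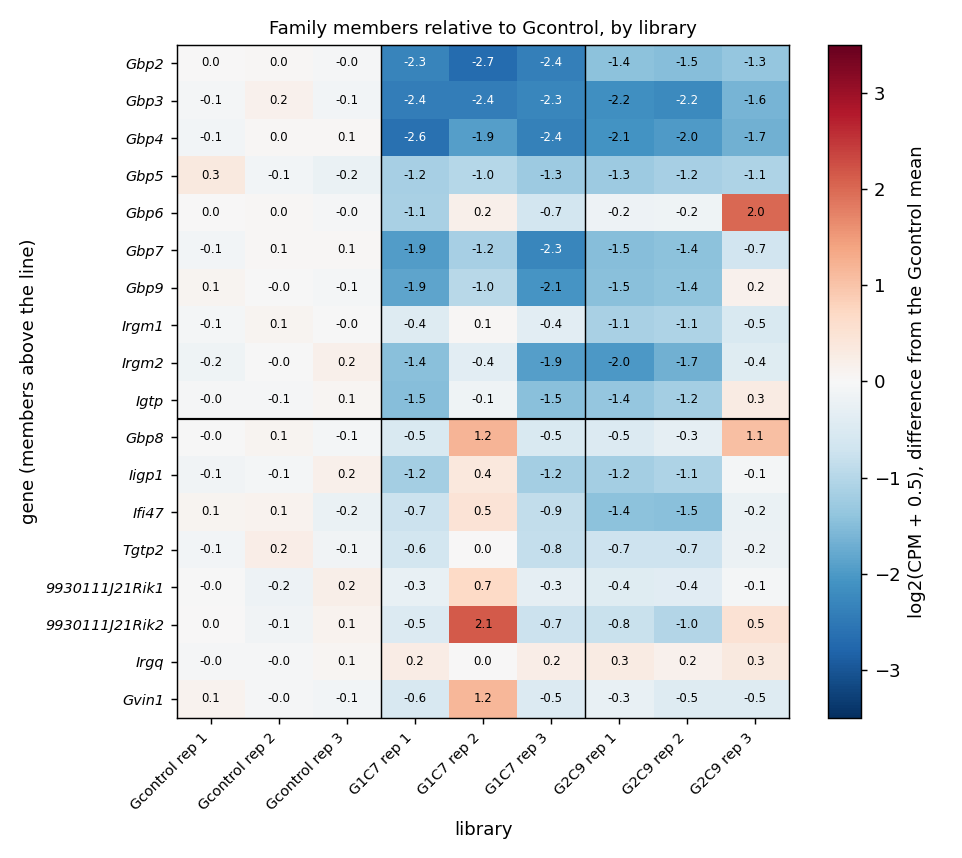
Difference of log2(CPM + 0.5) from the Gcontrol mean for the 10 members (above the line) and the other tested family genes (below it) in each of the 9 libraries; blue is lower and red higher. Gbp2, Gbp3 and Gbp4 are blue in all 6 derivative libraries, while G1C7 rep 2 and G2C9 rep 3 are paler or red for Gbp6, Gbp9, Irgm1, Irgm2, Igtp and most genes below the line.

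Most other genes of the families were read at low levels. Of 17 such genes, 8 could be tested, and none was called in any of the 3 comparisons with all 9 libraries. Ifi47, an IRG effector, had between 526 and 649 reads in Gcontrol, 317 to 843 in G1C7 and 178 to 472 in G2C9, with the highest value of each derivative in the library that stood apart. Iigp1, an effector that coats parasite vacuoles, had 30, 32 and 44 reads in Gcontrol, 0, 54 and 0 in G1C7 and 0, 2 and 30 in G2C9. Gbp8, in the chromosome 5 cluster, had 16 to 21 reads in Gcontrol but 77 in G1C7 replicate 2 and 63 in G2C9 replicate 3, with at most 8 in their sisters. Irgq, an IRG-like gene not known as an interferon target, had between 1323 and 1632 reads in all 9 libraries.

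Tgtp2, an effector whose sequence is largely shared with Tgtp1 (76.8% of its 100-base words occur in other genes), had 18, 30 and 18 reads in Gcontrol and 22 and 14 in the libraries that stood apart, with at most 4 in the others. Gvin1, of the giant GTPases, had 70 reads in G1C7 replicate 2 and at most 20 in any other library, and 97.8% of its words occur in other genes. 9930111J21Rik2 and 9930111J21Rik1, which share much of their sequence too, had at most 201 and 26 reads outside G1C7 replicate 2, and 735 and 47 in it. The remaining 9 genes did not pass the filter: Tgtp1 had 8 to 12 reads in Gcontrol, 0 in all G1C7 and at most 2 in G2C9 libraries, Gm12250 at most 20, Gbp10 at most 8, Gm4951 and Gm5431 at most 6, Irgc1 at most 4, and Gbp2b, Gbp11 and F830016B08Rik at most 2. For Tgtp1 the Gcontrol level was at least 4.78-fold above the floor of 6 reads over the G1C7 group. Without both libraries that stood apart, 5 of the 7 other tested IRG genes were called lower in each derivative (27.9% and 27.6% of all genes) and Irgq higher. Of these 7, Iigp1, Tgtp2, 9930111J21Rik1 and Gvin1 then passed the filter only through Gcontrol, and so did Gbp8, which was called lower in G1C7. Such genes make up 3 of the 5 lower IRG calls in each derivative, which are therefore no support. The other calls were those of 9930111J21Rik2 and of Ifi47, at -0.85 ± 0.12 for G1C7 and -1.58 ± 0.13 for G2C9 (edgeR, adjusted p = 6.4e-06 and 1.1e-08).

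Upstream of the members, the interferon genes and receptors were followed. Ifng had 0 reads in all 9 libraries, which allows up to 3 read pairs per library, and Ifnb1 at most 4 reads. Of 4 tested genes in this list, 1 rose in G1C7 and none fell, where 8.77% of all genes were called higher. None was called in G2C9 or between the derivatives, and the medians were -0.01, 0.06 and -0.05. The gene that rose was Ifngr1, the ligand-binding chain of the interferon gamma receptor, at 48.3, 49.3 and 49.6 CPM in Gcontrol and 62.6, 69.9 and 65.1 in G1C7 (log2 fold change 0.43 ± 0.08; edgeR, adjusted p = 0.0101). This call was lost when Gcontrol replicate 1 was left out (adjusted p = 0.0563). In G2C9 Ifngr1 was at 0.26 ± 0.08 (adjusted p = 0.0779) and Ifnar1, a chain of the type I receptor, at -0.08 ± 0.12 (adjusted p = 0.747). With all 9 libraries no receptor gene was called lower in either derivative. In the fit without the libraries that stood apart, Ifngr1 was called higher in each derivative (26.4% and 25.4% of all genes), and Ifngr2 and Ifnar1 were called lower in each and Ifnar2 in G1C7 (27.9% and 27.6% of all genes). These lower calls were small, at log2 fold changes between -0.37 and -0.14.

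Of 17 tested genes for interferon signalling and its transcription factors, none was called in G1C7, and 2 fell and none rose in G2C9. Over all genes 8.73% and 7.22% were called lower, and the medians of the list were 0.00 and -0.07 against 0.02 and 0.01 over all genes. In G1C7 an unadjusted p under 0.05 was reached by 2 of the 17 with edgeR, Usp18 lower and Batf3 higher, and DESeq2 and limma-voom each called 1, Usp18. Usp18, a feedback inhibitor of type I interferon signalling, had 71, 73 and 57 reads in Gcontrol, 4, 26 and 12 in G1C7 and 9, 10 and 55 in G2C9. On the CPM scale, each G1C7 library was below each Gcontrol library, whereas G2C9 replicate 3, at 1.07 CPM, lay within the Gcontrol range of 1.01 to 1.35 CPM. The highest value of each derivative was in the library that stood apart. The log2 fold change of Usp18 was -2.24 ± 0.78 in G1C7 (edgeR, adjusted p = 0.0846) and -1.32 ± 0.75 in G2C9 (adjusted p = 0.298). Jak1 and Stat3, the most abundant of the list, were at -0.05 ± 0.08 and -0.53 ± 0.29 in G1C7.

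Irf1, which activates many GBP genes, stood at 65.3, 64.8 and 64.6 CPM for Gcontrol, 43.7, 70.3 and 46.1 for G1C7 and 31.7, 35.6 and 39.6 for G2C9. It fell by 0.86 ± 0.18 on the log2 scale in G2C9 (edgeR, adjusted p = 0.0142), and in G1C7, where replicate 2 lay above Gcontrol, its log2 fold change was -0.28 ± 0.18 (adjusted p = 0.313). Irf1 lies on chromosome 11 within 5 Mb of Irgm1 and of Igtp and Irgm2. The genes counted around these members below, Irf1 among them, had medians of -0.37 and -0.31 in G2C9. The part of this position in the fall of Irf1 was not tested. Nlrc5, the transactivator of MHC class I genes, fell by 1.21 ± 0.34 in G2C9 (adjusted p = 0.0474). Both calls in G2C9 were lost without G2C9 replicate 1 or 2 or any 1 Gcontrol library, and that of Nlrc5 also without G1C7 replicate 1 or 3. None of the 17 was called by edgeR between the derivatives, where 3 had an unadjusted p under 0.05, DESeq2 called 2 and limma-voom 0, and where Jak1 and Stat3 were at 0.05 ± 0.08 and -0.48 ± 0.29. Without both libraries that stood apart, 7 of 16 tested genes of this list were called lower in G1C7 and 8 in G2C9 (27.9% and 27.6% of all genes), and 1 was called higher in each (26.4% and 25.4%).

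Partners of the members downstream were read next. With all 9 libraries, among 18 genes of vacuole targeting and autophagy conjugation, Lgals8, a galectin that marks damaged vacuoles, fell in both derivatives, from 59.2 ± 0.580 CPM to 34.4 ± 5.49 in G1C7 (log2 fold change -0.79 ± 0.12; edgeR, adjusted p = 0.0032) and 27.8 ± 2.05 in G2C9 (-1.09 ± 0.12, adjusted p = 0.000925). Gabarapl2, of the ATG8 family that IRG and GBP loading depends on, rose in G2C9 by 0.38 ± 0.09 (adjusted p = 0.0199), a call lost without G2C9 replicate 2 or Gcontrol replicate 1 or 3. The other 17 genes in G1C7 and 16 in G2C9 were not called, nor any between the derivatives, where Ubb and Sqstm1, the most abundant, were at -0.06 ± 0.13 and 0.34 ± 0.15. The medians of this list were -0.04, -0.09 and -0.02. Over all genes 8.73% were called lower in G1C7, and 7.22% lower and 6.25% higher in G2C9. When both libraries that stood apart were left out, 4 of the 18 were called lower and 3 higher in G1C7, near the shares over all genes (27.9% and 26.4%), and 9 lower and 4 higher in G2C9 (27.6% and 25.4%). Sqstm1, the autophagy receptor p62, was then at -0.15 ± 0.04 for G1C7 and -0.60 ± 0.04 for G2C9 (edgeR, adjusted p = 0.00324 and 5.7e-10).

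Among 10 genes of protein prenylation, the lipid anchoring that Gbp2 and Gbp5 undergo, Fdps, the farnesyl diphosphate synthase, rose in G1C7 by 0.70 ± 0.12 (edgeR, adjusted p = 0.0061). Rabggtb, a subunit of the Rab geranylgeranyl transferase, fell in G1C7 by 0.79 ± 0.08 (adjusted p = 0.000514), and Ggps1, the geranylgeranyl diphosphate synthase, by 0.32 ± 0.09 (adjusted p = 0.0436), a call lost in 7 of 9 fits with 1 library left out. None of the 10 was called in G2C9, where Rabggtb and Icmt, the most abundant, were at -0.15 ± 0.08 and -0.05 ± 0.10. Between the derivatives Rabggtb was lower in G1C7, at a log2 fold change of -0.64 ± 0.08 (adjusted p = 0.0037). The medians of this list were -0.03, -0.07 and 0.03. Over all genes 8.73% were called lower and 8.77% higher in G1C7, and 1.65% lower between the derivatives. Leaving out both libraries that stood apart, 2 of the 10 were called lower in each derivative (27.9% and 27.6% of all genes). In that fit 4 were called higher in G1C7 and 2 in G2C9 (26.4% and 25.4% of all genes).

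Among 8 tested genes of the inflammasome and pyroptosis, which GBPs feed by exposing bacterial lipopolysaccharide, 1 fell in each derivative and none rose with all 9 libraries, where 8.73% and 7.22% of all genes were called lower. Nlrp3, the inflammasome sensor, had 32, 52 and 28 reads in Gcontrol, 2, 10 and 4 in G1C7 and 4, 10 and 20 in G2C9, and fell by 2.77 ± 0.68 in G1C7 (edgeR, adjusted p = 0.0251), a call lost without G1C7 replicate 1 or 3 or any 1 Gcontrol library. Gsdmd, the pore-forming gasdermin, stood at 65.8, 63.7 and 64.1 CPM for Gcontrol, 39.2, 57.3 and 37.9 for G1C7 and 13.3, 13.2 and 27.2 for G2C9. It fell in G2C9 by 1.85 ± 0.29 (adjusted p = 0.0045) and was higher in G1C7 than in G2C9 by 1.32 ± 0.29 (adjusted p = 0.0452), the latter lost in 7 of 9 fits with 1 library left out. Casp4, the mouse caspase that senses lipopolysaccharide in the cytosol, was not called in any comparison with all 9 libraries. It stood at 10.8, 10.8 and 10.2 CPM in Gcontrol and at 53.7 and 50.0 in the libraries that stood apart. Their sister libraries were at 12.47 and 12.89 CPM in G1C7 and at 21.85 and 21.42 in G2C9. The medians of this list were -0.28, -0.05 and -0.24. With both libraries that stood apart left out, 5 of the 8 were called lower and 2 higher in each derivative, against 27.9% and 27.6% of all genes lower, and the medians were -0.86 and -1.08. The genes lower in both were Casp1, Gsdmd, Nlrp3, Il18 and Tmem173, of which Nlrp3 then passed the filter only through Gcontrol, and those higher in both were Casp4 and Cgas.

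The genes around the members on their chromosomes were then read, since Havcr2 lies on chromosome 11, 2.38 Mb from Irgm1 and 11.7 Mb from Igtp and Irgm2. Within 5 Mb of the chromosome 3 cluster, 51 tested genes of other families had a median log2 fold change of -0.49 in G1C7. Over all genes the median was 0.02. Of the 51, 22 were called lower and none higher, where 8.73% of all genes were called lower and 8.77% higher. Of the members there, Gbp7, Gbp2 and Gbp3, at -2.15, -2.5 and -2.66, lay well below the median of -0.49. Gbp5, at -3.84, passed the filter only through its Gcontrol libraries and is no support for this. The nearest genes on either side were Pdlim5 at -0.61 ± 0.10 (edgeR, adjusted p = 0.0044) and Kyat3 at -0.68 ± 0.21 (adjusted p = 0.0559). In G2C9 the same 51 genes had a median of -0.07, with 3 called lower and 3 higher (7.22% and 6.25% of all genes). In G1C7 against G2C9 their median was -0.43, with 12 called lower (1.65% of all genes). That last median stands beside the difference of -1.06 for Gbp2, and its part in it was not tested.

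Within 5 Mb of the chromosome 5 cluster, 95 genes had medians of 0.03 in G1C7, 0.07 in G2C9 and -0.05 between the derivatives. Zfp951 and Lrrc8b, the nearest tested genes on either side, were not called in any comparison. For the chromosome 11 counts that follow, 8.73% of all genes were called lower and 8.77% higher in G1C7. For G2C9 these shares were 7.22% and 6.25%. Around Irgm1, 86 genes had medians of -0.15 in G1C7 (11 lower and 1 higher) and -0.37 in G2C9 (19 lower and 1 higher), beside -0.24 and -0.90 for Irgm1 itself. Its nearest neighbours, Trim7 and Psme2b, were not called in either. Around Igtp and Irgm2, 145 genes had medians of -0.19 in G1C7 (16 lower and 3 higher) and -0.31 in G2C9 (29 lower and 1 higher). Mrpl22, on one side of them, fell by 0.45 ± 0.10 for G1C7 and by 0.54 ± 0.10 for G2C9 (edgeR, adjusted p = 0.0169 and 0.009), while Zfp692, on the other, was not called against Gcontrol.

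**Figure D5:**
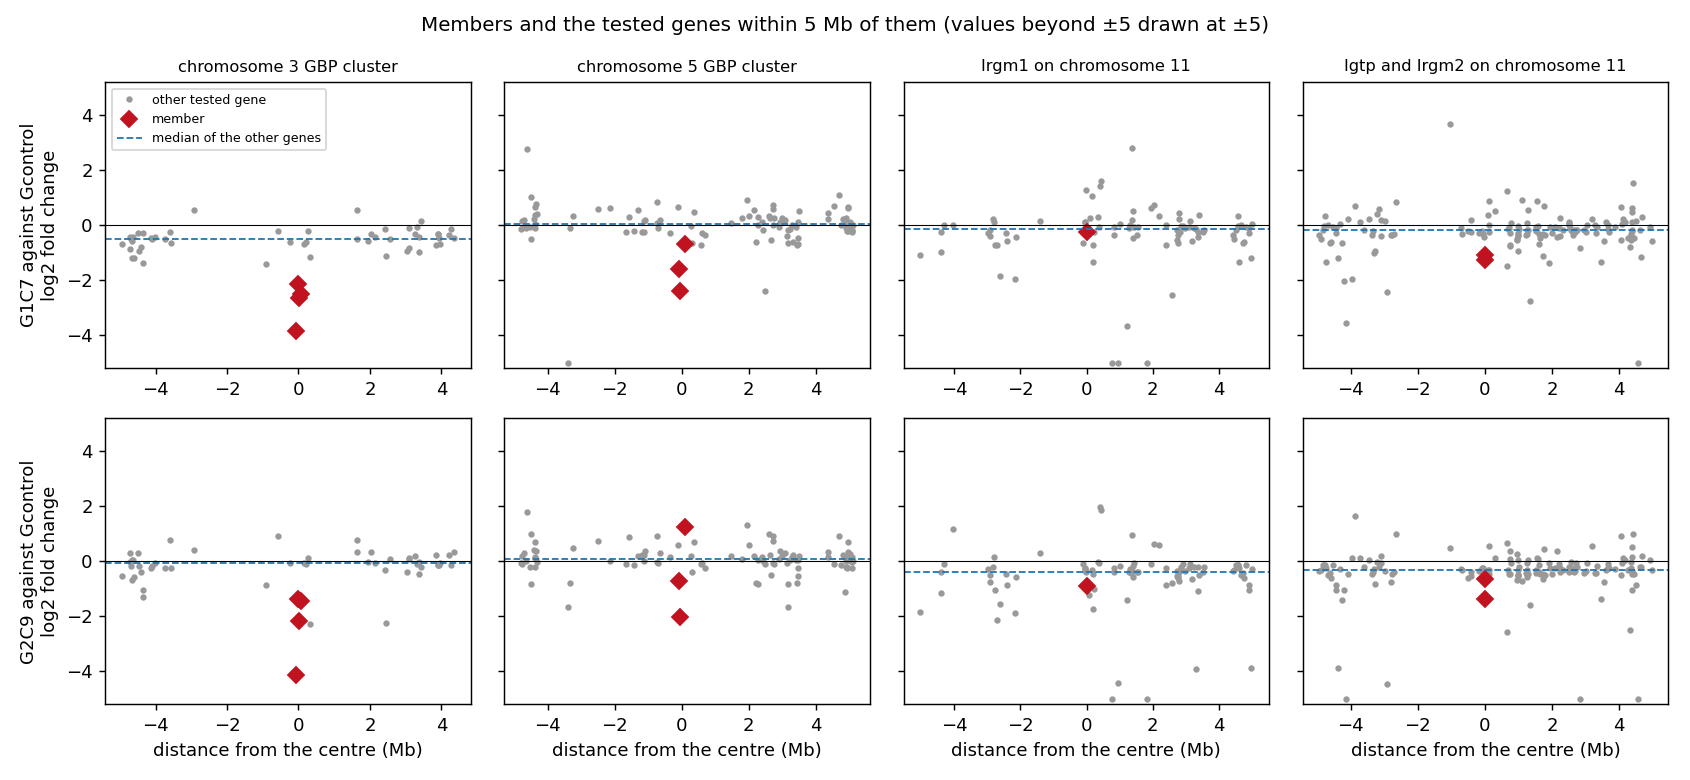
Log2 fold change (edgeR) of the members (red diamonds) and of the other tested genes within 5 Mb (grey points) against distance from the centre of each member cluster in Mb, for G1C7 (top) and G2C9 (bottom); dashed lines are medians of the grey points. The dashed line lies at -0.49 around the chromosome 3 cluster in G1C7 and at -0.07 in G2C9. The chromosome 3 members lie below it in both, Gbp5 being tested only through its Gcontrol libraries.

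The genes whose pattern over the 9 libraries was most like that of each member were found by the root mean square difference of log2(CPM + 0.5), each gene centred on its own mean, among 12915 protein-coding genes. The median difference of these genes from Gbp2 was 1.04. The nearest to Gbp2 were Ehd3 at 0.163 and Msrb2 at 0.200, which had 2.56 ± 0.215 and 1.78 ± 0.0344 CPM in Gcontrol, 0 reads in G1C7 and 0.583 ± 0.193 and 0.468 ± 0.229 CPM in G2C9. Their edgeR log2 fold changes in G1C7 were -10.09 and -9.56, against -2.5 for Gbp2. At such low CPM the added 0.5 limits the size of a fall, so likeness on this scale does not mean a fall of like size. Nearest to Gbp3 were Kcnn3 at 0.147 and Rbp4 at 0.176, and nearest to Gbp4 were Foxq1 at 0.129 and Otulinl at 0.131. In G1C7 Kcnn3 and Rbp4 had log2 fold changes of -4.88 and -5.68, against -2.66 for Gbp3. Both were near the floor in G1C7, at 0.0733 ± 0.0361 and 0.0489 ± 0.0555 CPM. Kcnn3 passed the filter on low counts only through its Gcontrol libraries, so its fall is no support. Foxq1 and Otulinl were at -2.56 and -2.74 in G1C7, against -2.41 for Gbp4. Gbp3 and Gbp4, on different chromosomes, were each other's nearest member at 0.192. Gbp7 was nearest to Crabp2 and Svep1 (0.158 and 0.163), and Gbp9 to Rnf128 and Scly (0.201 and 0.214).

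The members that followed the libraries that stood apart had other neighbours. Gbp6 was nearest to Nr4a2 and Med12l (0.176 and 0.208), Igtp to Trim12c and C1qtnf1 (0.128 and 0.139) and Irgm2 to Ephb6 and Apol9b (0.184 and 0.190). Irgm1, with the smallest spread of the 9 members compared, was nearest to Cnp at 0.0631 and Gsta4 at 0.11. Cnp, a myelin enzyme, stood at 19.7 ± 0.601 CPM for Gcontrol, 16.9 ± 3.06 for G1C7 and 10.5 ± 1.96 for G2C9. Gbp5 was left out of this search because its mean was under 1 CPM.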

How the data were processed

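Per the file headers, the deposited values are gene-level read counts from featureCounts 1.6.0, with GENCODE vM25 (GRCm38) as annotation; FastQC 0.11.8 and STAR 2.6.1c are named in the submitters' processing notes. Per the file headers no option for pairs, strand or multi-mapping reads was set, so that mates were counted separately, strand was ignored, and reads in overlapping genes were dropped. The 10 members, the other gene lists, the tests and the alternatives were chosen with earlier results of these data known. All 9 libraries entered an edgeR 4.0.16 quasi-likelihood fit (R 4.3.3, robust, TMM, filterByExpr), which tested 15659 of 55401 genes with 6 residual degrees of freedom; the common biological coefficient of variation was 0.248. Calls were made at 0.05 after Benjamini-Hochberg adjustment over all genes tested. Standard errors were taken as the size of the log2 fold change divided by the root of its F statistic. The procedure was tested on simulated data. DESeq2 1.42.0, limma-voom (limma 3.58.1), RLE factors, other filters, a fit of only the groups compared, a replicate block and each library left out were alternatives. Symbols came from GENCODE vM21. The values of 1 listed pathway gene are not reported here. Named were all members, all other family genes with reads, up to 2 called genes per direction and list (the 2 most abundant where none was called), the nearest genes on the chromosome and the 2 most alike in pattern; genes named from fits without the libraries that stood apart, Casp4, Usp18, Batf3, Gm43302 and Gm43802 were added after their values or positions were seen.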

Additional observations from a re-analysis of the deposited data

Results flagged for a closer look

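The derivatives' changes from Gcontrol differed from each other for 1 member and 6 genes of the lists beside the members, by the edgeR test of G1C7 against G2C9 (adjusted p under 0.05 over all genes tested). Gbp2 fell further in G1C7, with a difference of -1.06 ± 0.11 (SE; n = 3 libraries per group), and was lower in 3 of 3 G1C7 libraries than in any G2C9 library. Rabggtb differed by -0.64 ± 0.08 and was lower in all 3 G1C7 libraries. Ccl2, a chemokine for monocytes, differed by -1.26 ± 0.19, at 162.3, 147.5 and 171.1 CPM in G1C7 and 312.2, 316.5 and 526.7 in G2C9. Gsdmd differed by 1.32 ± 0.29, higher in all 3 G1C7 libraries, with an adjusted p of 0.0452 that rose to as much as 0.162 with 1 library left out. Among the cell type markers, Cspg4 differed by -1.71 ± 0.24, at 1.53, 0.910 and 1.46 CPM in G1C7 and 4.0, 3.39 and 5.41 in G2C9. Cdh5, the endothelial cadherin, differed by -1.66 ± 0.23, at 1.27, 0.855 and 1.24 CPM in G1C7 and 3.78, 3.29 and 3.59 in G2C9, against at most 0.795 in Gcontrol. Of 4 endothelial markers 3 were tested, and with all 9 libraries only Cdh5 was called in any comparison. Pecam1 and Kdr had log2 fold changes of 1.27 and -0.56 in G2C9 against Gcontrol, and Tek had at most 10 reads in any library. Nes differed by 0.67 ± 0.08, higher in all 3 G1C7 libraries.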

How the results depend on the processing

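Of 270 member values with 1 library left out, 237 kept direction and side of the threshold, 19 lost a call, 7 gained one and 7 turned sign; of 236 under the other settings these were 213, 4, 17 and 2. Members called lower in G1C7 numbered 6, between 4 and 8 with 1 library left out, and 10 with both libraries that stood apart left out. In G2C9 they numbered 5, between 3 and 8 with 1 left out (3 without G2C9 replicate 1 or 2 or any Gcontrol library, 8 without G2C9 replicate 3), and 9 without both. Between the derivatives 1 was lower, and 5 without both; 0 were higher, 1 with DESeq2 and without both (Irgm1), and between 0 and 1 with 1 left out. The signs that turned were of changes that did not pass. Gbp6 in G2C9 was at 1.24, between -0.24 (G2C9 replicate 3 left out) and 1.65 with 1 left out, and at -0.25 with both left out. Between the derivatives, Gbp5 was at 0.29, between -1.01 (G1C7 replicate 2 left out) and 1.18, at -0.27 when G2C9 replicate 1 was left out, and at -0.11 with both left out. Irgm2 was at 0.11 there, between -0.61 (G1C7 replicate 2 left out) and 0.93, and at -0.22 and -0.13 when G2C9 replicate 1 or 2 was left out. Igtp was at -0.45, between -1.29 and 0.52 (G2C9 replicate 3 left out). The cause was not tested. The filter of 1 CPM in 3 libraries removed Gbp5.

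With the replicate block, 4 members were lower in G1C7, 4 in G2C9 and 1 between the derivatives, and calls over all genes went from 2740, 2109 and 526 to 1532, 1114 and 164. They were 8581, 8383 and 4320 with both libraries that stood apart left out, and with 1 left out they ranged from 1181 to 4133, 878 to 4113 and 186 to 1286. The deviations of same-numbered libraries correlated between -0.716 and 0.62. Between the derivatives these values mostly reflect the libraries that stood apart, G1C7 replicate 2 and G2C9 replicate 3 correlating at 0.775. They therefore cannot tell whether same-numbered libraries were prepared together. Only the groups compared gave 2483, 3212 and 80 calls, and DESeq2 3862, 3190 and 1267. At this depth Gbp5, Iigp1, Tgtp2 and Gvin1 rest on few read pairs.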

Other observations

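The acute-phase and inflammation genes that set the libraries apart from their sisters were read beside the members. Saa3, an acute-phase apolipoprotein, was at 178.8, 181.8 and 168.3 CPM in Gcontrol, at 595.9 in G1C7 replicate 2 against 39.5 and 41.0 in the others, and at 1943 in G2C9 replicate 3 against 132.2 and 134.1. Il6, the cytokine that induces acute-phase genes, was at 51.6 CPM in G1C7 replicate 2 against 3.01 and 3.32, and at 243.7 in G2C9 replicate 3 against 15.4 and 16.1. Of 10 tested genes of this list, Ccl2 fell in G1C7, by 1.43 ± 0.20 on the log2 scale (edgeR, adjusted p = 0.002), and none was called in G2C9, where Cxcl1 and C3, the most abundant, were at 1.21 ± 0.75 and 0.88 ± 0.43. Over all genes 8.73% were called lower in G1C7. With both libraries that stood apart left out, 9 of the 10 were called lower and none higher in G1C7, and 5 lower and 4 higher in G2C9. Serpina3n was then tested only through its Gcontrol libraries. The shares over all genes were 27.9% and 27.6% lower and 26.4% and 25.4% higher. This list set the left-out libraries apart, so these counts are no separate support.

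Genes of the interferon signalling list differed in how they stood in the 4 derivative libraries that did not stand apart. Irf7, a regulator of type I interferon genes, was at 2.92, 2.59 and 2.72 CPM in Gcontrol, 0.243, 1.78 and 0.292 in G1C7 and 0.238, 0.245 and 2.19 in G2C9. Irf7 was not called with all 9 libraries, and was called lower in both derivatives without those that stood apart (edgeR, adjusted p of up to 1e-08), as was Usp18 (up to 3.5e-05). Stat2 was at 29.4 and 27.7 CPM in the libraries that stood apart, and in the other derivative libraries, at 11.2 to 13.3 CPM, it was close to Gcontrol at 12.3 to 14.3. Irf9 stood between 8.18 and 10.98 CPM in those 4 libraries, against 10.99 to 13.9 in Gcontrol. These genes were named after their values were seen.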
